A study of Mus musculus with 27 samples.

Results

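The comparison described here is that between the sons and the daughters of dams on a Western-style high fat diet (WSD), in the genes of the 19 autosomes, in liver at 2 weeks of age. The pups were chosen by the labelled sex and maternal diet, which gave 6 sons (m-WS) and 6 daughters (f-WS), 12 of the 27 pups of the study. The other 15 were 6 sons (m-LF) and 9 daughters (f-LF) of dams on a low fat diet (LFD). All were C57Bl/6J mice. The WSD held 45% of its energy as fat and 196.5 mg cholesterol per kg, the LFD 10% and 18.0 mg per kg, and the dams ate their diet for 6 weeks before mating and through gestation and lactation. Sires were on the control diet, so the pups of either group met the diet through the dam alone, before birth and in milk. Each liver was measured on 1 Affymetrix Mouse Gene 1.1 ST array, and values are log2 intensities, in which a difference of 1 is a 2-fold change. Of 10810 genes tested, 10462 were autosomal.

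In adult mice, a large set of liver genes differs between the sexes. The pattern follows the rhythm in which the pituitary releases growth hormone, in pulses in males and almost without pause in females, and it is carried into the hepatocyte by STAT5B and by transcription factors such as CUX2, which is made in female liver. The adult pattern is set at puberty, and the pups studied here were sucklings. Liver is also ordered along the blood stream: hepatocytes at the central vein, under Wnt signals from its endothelium, make glutamine, while those at the portal vein run the urea cycle.

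The labels were checked first. The Y-linked gene Uty lay between 7.86 and 8.10 in the 6 sons and between 2.82 and 3.24 in the 6 daughters, and Kdm5d and Eif2s3y separated the groups too. The female-expressed Xist was 11.79 to 11.88 in daughters and 3.40 to 4.50 in 5 sons, but 7.92 in m-WS1, which therefore stood apart. Among LFD sons Xist was 3.25 to 4.30 in 5 pups and 9.30 in m-LF6, which enters every value on LFD and every difference between the diets. Values without m-WS1 or m-LF6 are given where they change a count of calls or a call named here, and what sets these 2 pups apart was not tested. All 10 hepatocyte genes listed were expressed, the lowest at 11.34. The array names carry a number whose meaning the labels do not give. Among sons it was 40 in m-WS1 and m-WS2 and 48 in the other 4, and among daughters 39 in f-WS1 and f-WS2, 40 in f-WS3 and f-WS4 and 48 in f-WS5 and f-WS6. Each such number occurs on 1 maternal diet only, pups that share one may share a dam, and p-values take pups as independent. Differences are therefore also given within number 40 (2 sons, 2 daughters) and within number 48 (4 sons, 2 daughters).

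Autosomal expression differed between the sexes mostly by small steps, more often towards daughters. A gene is said to pass, or to be called, at an unadjusted p of at most 0.01, the threshold of the study, and p-values printed are adjusted over all genes tested by limma. At p 0.01, 343 of 10462 genes (3.28%) differed, where 104.6 would pass if none did. Of these, 108 (1.03%) were higher in sons and 235 (2.25%) higher in daughters (96 and 245 without m-WS1). Counts of called genes in the lists below are to be read beside these shares. The difference was at least 0.5 in 34 genes and at least 1 in 5, with a median size of 0.25 and a largest of 1.61. After Benjamini-Hochberg adjustment 10 genes (0.0956%) had an adjusted p under 0.05, 1 higher in sons and 9 in daughters. The adjustment took in the 338 X-linked and 4 Y-linked genes tested, whose sex differences can lower the adjusted p of autosomal genes. An adjustment over autosomal genes alone was not run. In 61 of the 343, no son overlapped any daughter, beside 90 (0.86%) of all 10462 autosomal genes. The share of the 343 that was higher in daughters, 68.5%, depended on the scaling of the arrays: it was 36.3% on median-centred arrays and 51.6% after a repeated quantile normalization, which moved the median difference of all autosomal genes from -0.02 to 0.01 and to 0.00. Within number 48 alone 89 genes passed p 0.01 (24 higher in sons, 65 in daughters) and none the adjusted threshold (limma), and within number 40 it was 410 and 8 genes. Single pups moved the counts: the 10 genes were 5 without m-WS2 or m-WS5, 17 without m-WS4, 3, 4 and 6 without f-WS1, f-WS2 and f-WS3, and 20 and 25 without f-WS5 and f-WS6, and the 108 genes higher in sons were 54 without m-WS3, 68 and 71 without f-WS2 and f-WS3, and 189 without f-WS5.

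**Figure D1:**
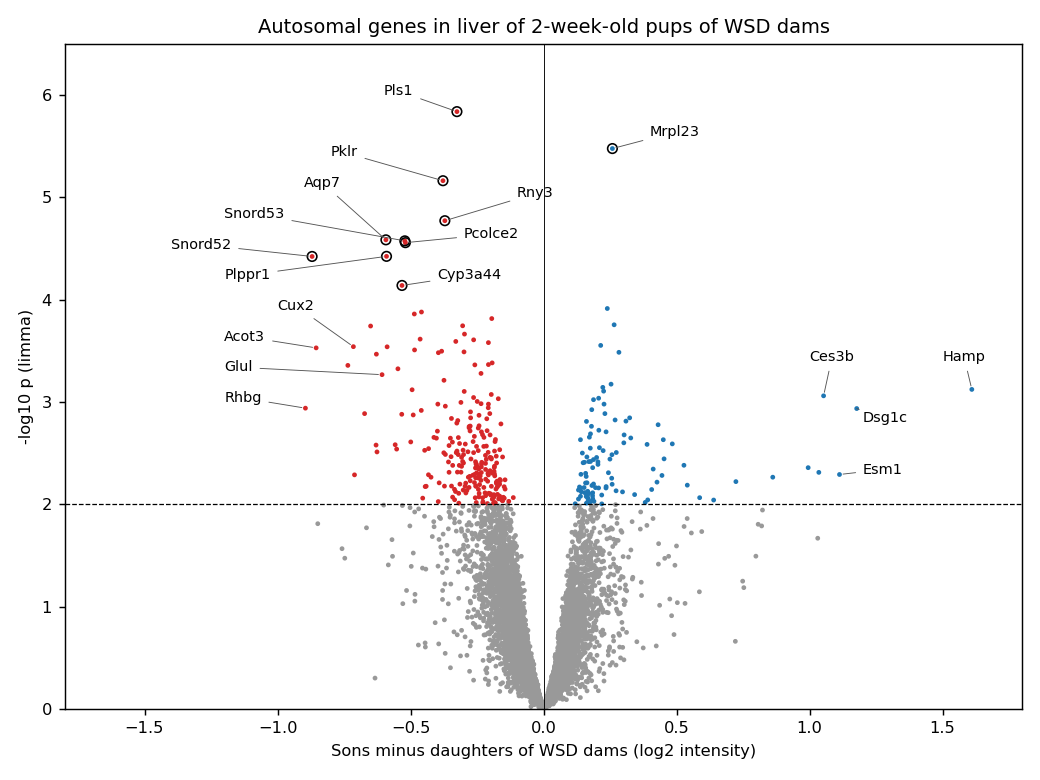
Each point is 1 of the 10462 autosomal genes; the x axis is the difference in log2 intensity, sons minus daughters of WSD dams (6 pups each), and the y axis -log10 of limma's p. The dashed line is p 0.01, above which 108 blue genes were higher in sons and 235 red genes higher in daughters, and rings mark the 10 genes with an adjusted p under 0.05.

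The 10 genes at the adjusted threshold were a mitochondrial ribosomal protein gene higher in sons and, higher in daughters, an actin bundler, a glycolytic enzyme, a glycerol channel, a steroid hydroxylase of the Cyp3a family, 2 genes of the cell surface and matrix, and 3 small RNAs. Mrpl23, a subunit of the mitochondrial ribosome, ran from 10.04 over a median of 10.09 to 10.15 in sons and from 9.68 over 9.86 to 9.91 in daughters. All sons were above all daughters, by 0.26 ± 0.045 (SE; adjusted p = 0.0036). It was the only one of the 10 genes higher in sons, and a further probe set of the gene gave 0.27.

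Pls1, which encodes the actin-bundling plastin of epithelial brush borders, had the smallest p. Sons lay at 8.26, 8.36 and 8.44 (lowest, median and highest) and daughters at 8.56, 8.69 and 8.74, a difference of -0.33 ± 0.054 (adjusted p = 0.00175) without overlap. Pklr, the pyruvate kinase of liver and the last step of glycolysis, lay at 9.51, 9.72 and 9.78 in sons and at 9.90, 10.05 and 10.30 in daughters (-0.38 ± 0.069, adjusted p = 0.00675). Here too every daughter was above every son. Aqp7, a channel for glycerol and water, lay at 6.20, 6.47 and 6.54 in sons and 6.69, 6.93 and 7.55 in daughters (-0.59 ± 0.12, adjusted p = 0.0199). Plppr1, a membrane protein of the lipid phosphatase-related family, lay at 6.86, 7.08 and 7.24 against 7.31, 7.58 and 8.00 (-0.59 ± 0.12, adjusted p = 0.024). In both of these the sons formed a narrow group below a wide range of daughters. Pcolce2, an enhancer of procollagen processing, was the only one of the 10 with overlap: 6.73, 6.97 and 7.21 in sons and 7.12, 7.50 and 7.62 in daughters (-0.52 ± 0.10, adjusted p = 0.0199).

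All 10 genes stayed past p 0.01 with number as a block and when the daughters of number 39 were left out, but fewer kept an adjusted p under 0.05: 3 with the block (Mrpl23, Pls1 and Snord52) and 2 without number 39 (Mrpl23 and Pls1). Without m-WS1 it was 9 of the 10, Cyp3a44 being the exception, and 15 autosomal genes in all had an adjusted p under 0.05. Within number 48, Mrpl23 (0.25), Pls1 (-0.26), Plppr1 (-0.43) and the 3 small RNAs stayed past p 0.01 with most of their difference, whereas Pklr (-0.15), Aqp7 (-0.26), Pcolce2 (-0.29) and Cyp3a44 (-0.29) had the same sign and did not pass. Within number 40 these last 4 differed by -0.58, -0.56, -0.66 and -0.80. There Mrpl23 (0.33), Pls1 (-0.35) and Snord52 (-0.70) passed as well, whereas Plppr1 (-0.39), Rny3 (-0.30) and Snord53 (-0.43) had the same sign and did not.

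**Figure D2:**
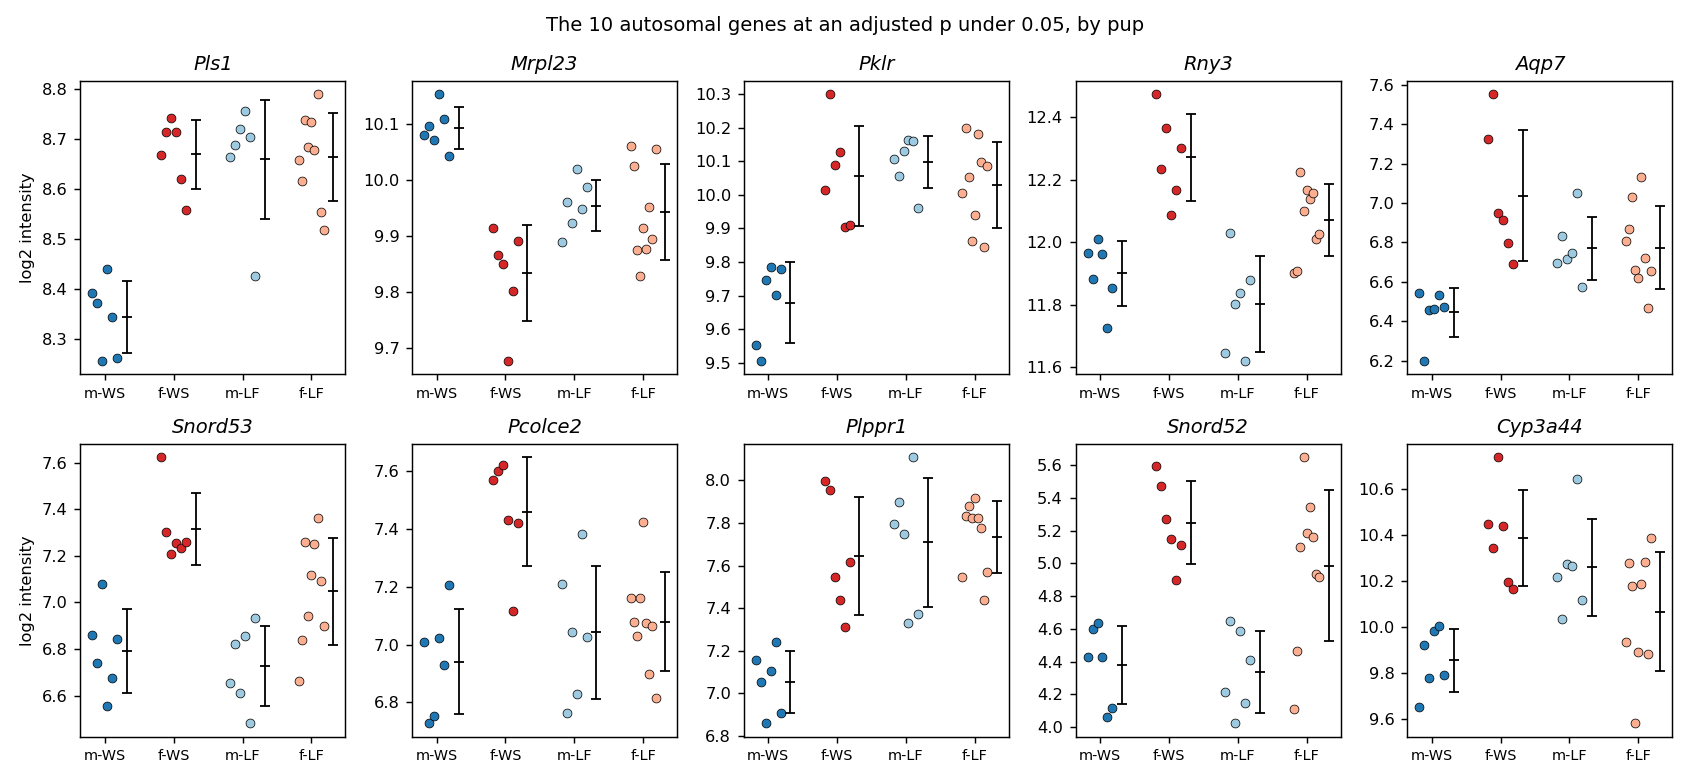
Each panel is 1 of the 10 genes with an adjusted p under 0.05, each point 1 pup in log2 intensity (y axis, its own range per gene and not from 0), and bars are the group mean ± SD for m-WS (n = 6), f-WS (n = 6), m-LF (n = 6) and f-LF (n = 9). Sons and daughters of WSD dams do not overlap in 9 of the panels, Pcolce2 being the exception, and of the 10 genes Rny3 and Snord52 had the smallest p between the sexes on LFD.

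Genes that adult females express at a higher level were, where they differed, higher in daughters. Of 21 listed genes measured, 18 were tested, and 5 were higher in daughters at p 0.01 and 0 in sons (13 did not pass). The median difference was -0.14, with 12 of 18 below 0, beside a median of -0.02 with 6034 of 10462 below 0 over all autosomal genes. On LFD the median of the same 18 genes was -0.02, and 1, Atp6v0d2 (-0.39), was called higher in daughters, or 2 without m-LF6, with Cyp2b10 as the other. The 5 genes called on WSD were Cyp3a44, Cyp3a16, Cux2, Acot3 and Prom1.

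Cyp3a44 and Cyp3a16 are steroid and drug hydroxylases, both in the Cyp3a gene cluster of chromosome 5. Cyp3a44 lay at 9.65, 9.86 and 10.00 in sons and at 10.16, 10.39 and 10.74 in daughters, a difference of -0.53 ± 0.11 (adjusted p = 0.0436). Cyp3a16 lay at 10.45, 10.60 and 10.87 in sons and at 10.95, 11.16 and 11.22 in daughters (-0.49 ± 0.11, adjusted p = 0.0712). In neither did a son reach the lowest daughter. The 2 genes are close copies, and probes may have read both. Within number 48 the differences were -0.29 and -0.47, and neither passed p 0.01. On LFD they were 0.19 (adjusted p = 0.771) and 0.07 (adjusted p = 0.905), and the difference between the diets was -0.72 (adjusted p = 0.182) for Cyp3a44.

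The likeness of the pair reaches into the 250 bases before the RefSeq start (GRCm38.p6, minus strand), which are shown because the 2 genes had like differences. Of 246 aligned bases, 236 (95.9%) were identical. Each holds 1 match to ATCAAT, the core letters that CUX and HNF6 type factors are known to bind (searched on both strands), beginning 71 bases before the start in Cyp3a44 and 75 in Cyp3a16, and printed in capitals. Of 32851 RefSeq promoter windows of that length, 2209 (6.72%) hold these letters. Neither window holds TTCNNNGAA, the STAT5 letters, which 7.02% of the windows hold. Of the other genes of this direction described below, the windows of Acot3 (2 starts) and Acot4 hold no match to ATCAAT. The windows are chr5:145805875-145806124 and chr5:145469724-145469973.
Cyp3a44: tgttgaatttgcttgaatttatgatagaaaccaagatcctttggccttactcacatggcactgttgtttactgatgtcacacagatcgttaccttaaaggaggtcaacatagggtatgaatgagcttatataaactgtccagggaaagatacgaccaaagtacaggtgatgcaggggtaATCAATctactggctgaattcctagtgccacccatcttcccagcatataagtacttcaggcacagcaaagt
Cyp3a16: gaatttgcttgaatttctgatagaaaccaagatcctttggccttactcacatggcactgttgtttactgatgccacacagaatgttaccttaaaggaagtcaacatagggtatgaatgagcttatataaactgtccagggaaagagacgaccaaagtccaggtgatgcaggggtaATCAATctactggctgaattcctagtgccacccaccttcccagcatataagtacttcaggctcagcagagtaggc
A match is a description of the letters in the window and says nothing of binding in these livers.

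Cux2, the female-enriched transcription factor, lay at 6.59, 7.10 and 7.32 in sons and 7.45, 7.78 and 8.09 in daughters. The groups did not overlap, the difference was -0.71 ± 0.17 (adjusted p = 0.0916), and within number 48 it was as large (-0.72) and past p 0.01, whereas within number 40 it was -0.42 and did not pass. On LFD it was -0.23 (adjusted p = 0.8). Acot3, a peroxisomal acyl-CoA thioesterase, lay at 6.06, 6.68 and 6.85 in sons and 6.98, 7.30 and 7.95 in daughters (-0.85 ± 0.21, adjusted p = 0.0916). Its sons were below all daughters, and the difference was -0.56 within number 40, which did not pass, and -0.66 within number 48, which did. Prom1, a cholesterol-binding membrane protein, differed by -0.30 ± 0.070 (adjusted p = 0.09), with sons up to 8.65 and daughters from 8.59. A further Prom1 probe set, at a mean level of 4.77, gave -0.08. On the mean of its 2 probe sets Prom1 did not pass p 0.01 (-0.19), which left 4 genes of the list higher in daughters. The sixth gene by p, the peroxisomal transporter Abcd2, did not pass (-0.15, adjusted p = 0.355). Cyp2b10 had the widest opposite value of the list, 0.59 ± 0.31 (adjusted p = 0.515), with -0.66 (adjusted p = 0.74) on LFD. Averaged over the 18 genes, single sons ran from 8.54 to 8.84 and daughters from 8.71 to 9.06, so the pups overlapped in the list as a whole.

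Adult male-biased genes showed no common direction. Of 18 measured and 12 tested, 1 was higher in sons and 2 in daughters, and the median was 0.04 with 6 below 0. Selenbp2, a selenium-binding protein, was higher in sons, at 10.76, 10.94 and 11.10 against 10.09, 10.49 and 10.86 (0.45 ± 0.13, adjusted p = 0.206). Ugt2b38, a glucuronosyltransferase, and Cyp7b1, an oxysterol hydroxylase, were higher in daughters although listed as male-biased, by -0.22 (adjusted p = 0.253) and -0.32 (adjusted p = 0.294). Cyp2f2 (0.36, adjusted p = 0.304), Cyp2u1 (0.41, adjusted p = 0.313) and the pheromone carrier Mup20 (0.47, adjusted p = 0.404) did not pass. Without m-WS1, 4 of the list were higher in sons (Cyp2f2, Cyp2u1 and Mup20 passing too) and 1 in daughters (Cyp7b1 no longer passing), and without the daughters of number 39, 0 and 0. On median-centred arrays 3 were higher in sons and 0 in daughters.

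**Figure D3:**
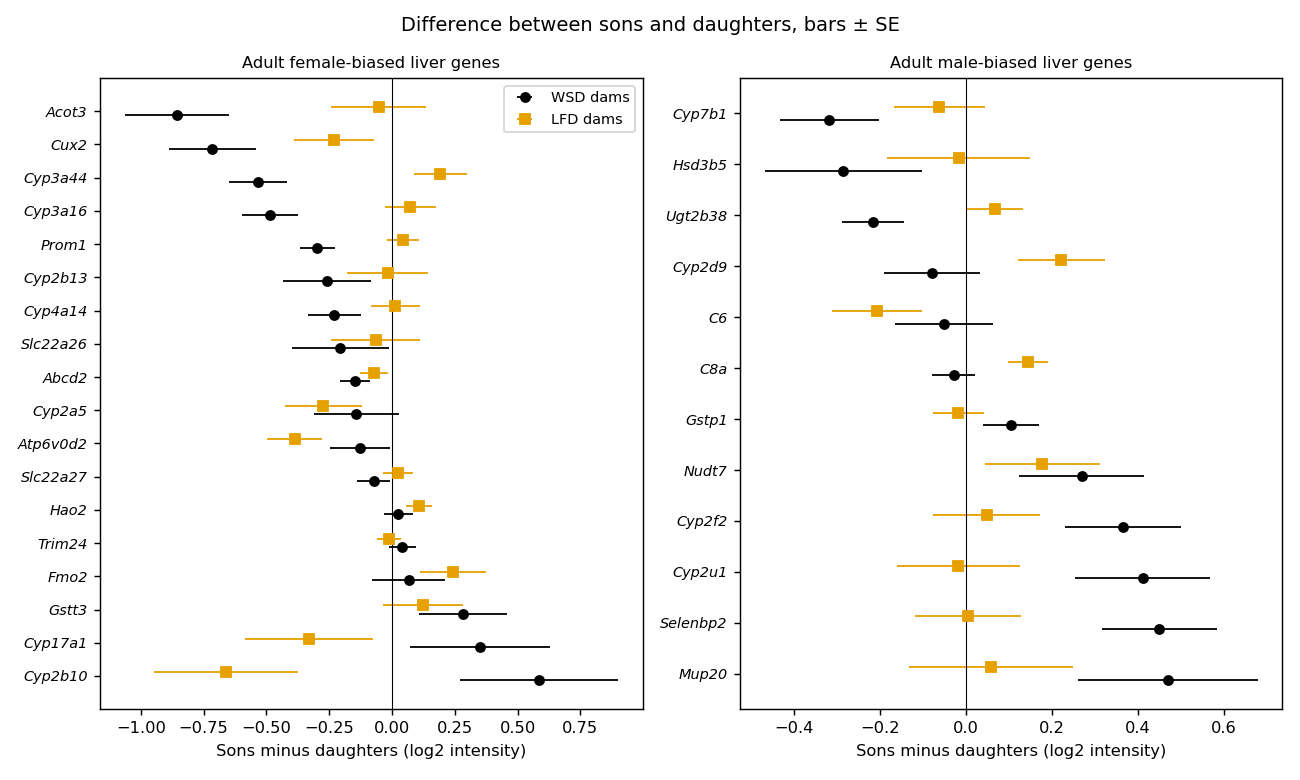
The x axis is the difference in log2 intensity, sons minus daughters, for the 18 tested adult female-biased genes (left) and the 12 tested adult male-biased genes (right), with bars of ± SE; circles are pups of WSD dams and squares pups of LFD dams. Acot3, Cux2, Cyp3a44, Cyp3a16 and Prom1 lie to the left on WSD, with LFD values from -0.23 to 0.19.

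The 5 largest differences towards sons were found in genes of low to moderate level and wide spread. Hamp, which encodes the iron hormone hepcidin, lay at 5.16, 6.15 and 7.43 in sons and 3.87, 4.42 and 5.42 in daughters. The groups overlapped at their edge, and the difference of 1.61 ± 0.43 (adjusted p = 0.149) was the largest of all autosomal genes past p 0.01. On LFD it was -0.53 (adjusted p = 0.802). The desmosomal cadherin Dsg1c lay at 5.95, 6.39 and 6.79 in sons and 4.56, 4.84 and 6.53 in daughters (1.18 ± 0.33, adjusted p = 0.171), Esm1, a proteoglycan secreted by endothelium, at 4.71, 5.56 and 6.43 against 3.91, 4.26 and 5.48 (1.11 ± 0.37, adjusted p = 0.243), and Ces3b, a carboxylesterase, at 5.75, 6.75 and 6.99 against 4.78, 5.43 and 6.02 (1.05 ± 0.28, adjusted p = 0.16). Gm10319, of which the function was not looked up here, differed by 1.03 ± 0.34 (adjusted p = 0.243). Ces3b kept its size within number 48 (1.04), where it passed p 0.01, but not within number 40 (0.17), where it did not. The others were larger within number 40: Hamp had 1.88 there and 0.87 within number 48, Dsg1c 1.87 and 0.16, and Esm1 1.89 and 0.20, and none of these 3 passed within number 48. Without m-WS1, Esm1 did not pass (1.05). None of the 5 passed the adjusted threshold in limma.

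Acute phase and complement genes, which hepatocytes secrete into plasma, were higher in sons where they differed. Over all autosomal genes 1.03% were called higher in sons and 2.25% in daughters. Of 31 acute phase and complement genes measured, 20 were tested, of which 5 were higher in sons and 0 in daughters, with a median of 0.08 and 6 below 0. Hamp, described above, is one of them, and its paralog Hamp2 (0.72) and the pore-forming C9 (0.41) are others. Complement C2 lay at 9.31, 9.37 and 9.52 in sons and 8.99, 9.17 and 9.32 in daughters (0.24 ± 0.054, adjusted p = 0.0696), and the protease inhibitor Mug1 at 11.06, 11.39 and 11.72 against 10.53, 10.86 and 11.50 (0.45 ± 0.14, adjusted p = 0.222). C2 overlapped narrowly, and for Mug1 the ranges shared the stretch from 11.06 to 11.50. For C2 the difference on LFD was -0.10 (adjusted p = 0.749), and the difference between the diets was 0.34 (adjusted p = 0.182). With number as a block 1 of the 20 passed, and the median was 0.00. Within number 48 none of the 20 passed, with a median of 0.03. Within number 40, 3 were higher in sons and 1 in daughters, with a median of 0.02. C2 differed by 0.34 within number 40, where it passed, and by 0.10 within number 48, where it did not. Mug1 differed by 0.24 and 0.20 and passed in neither.

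Genes of the pericentral hepatocyte had lower means in sons. All 13 tested of 14 autosomal genes measured had a difference below 0, with a median of -0.30, beside 57.7% of all autosomal genes below 0, and 2 passed p 0.01, both higher in daughters. That count was 1 without the daughters of number 39 and 0 within number 48. It was 4 without m-WS4, m-WS5, f-WS5 or f-WS6, 5 with number as a block and 7 when the WSD groups were fitted alone. Rhbg, an ammonium transporter, lay at 6.92, 7.30 and 7.53 in sons and 7.66, 8.32 and 8.48 in daughters (-0.90 ± 0.25, adjusted p = 0.171). Glul, the glutamine synthetase of the cells next to the central vein, lay at 10.63, 10.83 and 11.03 in sons and 10.99, 11.54 and 11.84 in daughters (-0.61 ± 0.16, adjusted p = 0.117). The groups were apart for Rhbg and met at their edges for Glul, for which a further probe set gave -0.59. Slc1a2, a glutamate transporter (-0.60, adjusted p = 0.3), the Wnt pathway receptor Lgr5 (-0.47, adjusted p = 0.304), Oat (-0.35, adjusted p = 0.31) and Axin2 (-0.28, adjusted p = 0.339) did not pass. When arrays were centred on their medians 12 of the 13 were below 0.

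The size of the pericentral difference was not the same in both numbers of the array names. Averaged over the 13 genes, m-WS1 and m-WS2 of number 40 had the lowest levels, 9.16 and 9.21, and the 4 sons of number 48 lay from 9.38 to 9.41. The daughters of number 48 followed at 9.43 and 9.51, those of number 40 at 9.74 and 9.75, and those of number 39 at 9.78 and 9.80. So every son was below every daughter, but the nearest son and daughter, both of number 48, were 0.02 apart. With number as a block all 13 genes stayed below 0, with a median of -0.26. The median difference was -0.55 within number 40, where 5 of 13 passed p 0.01, and -0.05 within number 48, where 9 of 13 were below 0, Glul differed by -0.14 and Rhbg by -0.29, and neither passed p 0.01. Sons and daughters of LFD dams spanned 9.49 to 9.86 and 9.19 to 9.95, and the median difference on LFD was 0.05. Whether the number stands for a litter was not tested.

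Periportal genes leaned the other way. Of 12 autosomal genes measured, 10 were tested, 2 were higher in sons and 0 in daughters, and the median was 0.13 with 2 below 0. Hal, the histidine ammonia lyase, lay at 10.79, 11.06 and 11.16 in sons and 10.14, 10.48 and 11.17 in daughters (0.43 ± 0.14, adjusted p = 0.259), and Uroc1, the next enzyme of histidine breakdown, differed by 0.18 ± 0.062 (adjusted p = 0.261). One daughter was above all sons for Hal. The urea cycle genes tested, Asl (0.11, adjusted p = 0.747) and Arg1 (0.15, adjusted p = 0.729), did not pass. Without m-WS1, 3 of the list were higher in sons. Within number 48 the median was -0.03, and without the daughters of number 39 none passed p 0.01, with a median of 0.02.

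**Figure D4:**
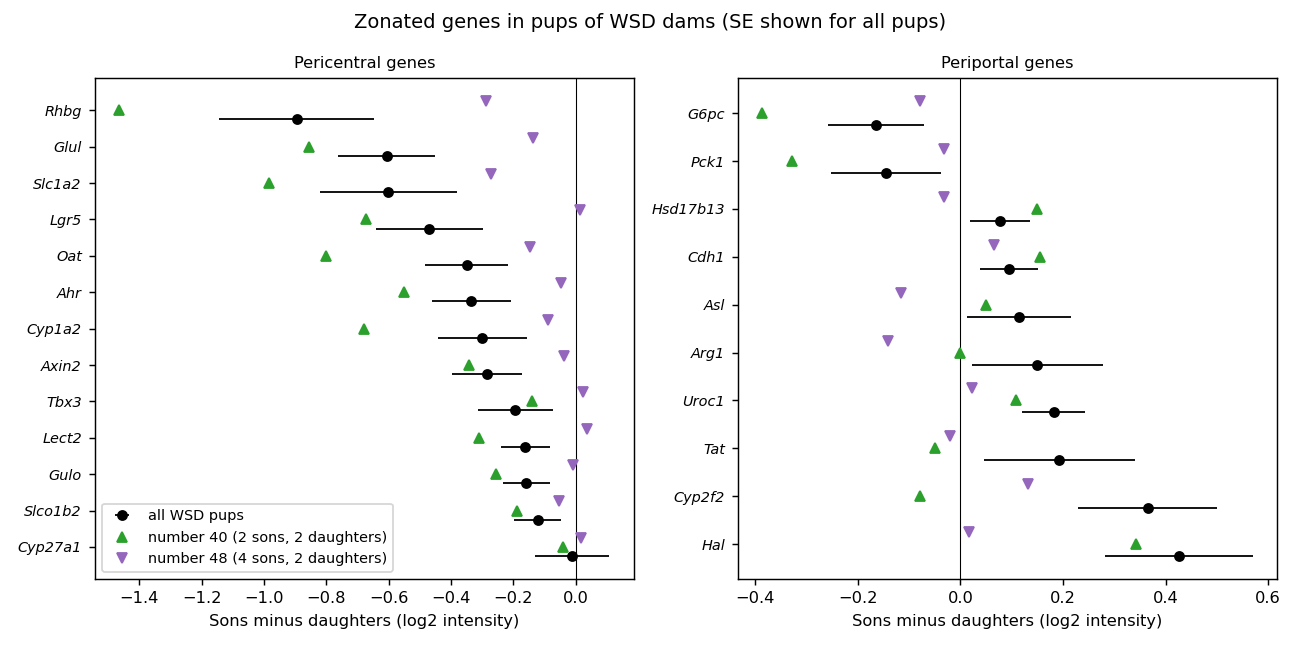
The x axis is the difference in log2 intensity, sons minus daughters of WSD dams, for 13 pericentral genes (left) and 10 periportal genes (right); circles with ± SE are all 12 pups, upward triangles the 4 pups of number 40 and downward triangles the 6 pups of number 48. The pericentral medians are -0.30, -0.55 and -0.05 in these 3 sets.

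Wnt signals come to the pericentral hepatocyte from endothelium, and 2 of their genes had the same sign. Wnt2, a ligand, lay at 5.26, 5.62 and 6.10 in sons and 5.95, 6.30 and 6.76 in daughters (-0.71 ± 0.23, adjusted p = 0.243), and Rspo3, which prolongs the signal at the receptor, at 6.63, 6.82 and 7.02 against 6.89, 7.17 and 7.65 (-0.40 ± 0.12, adjusted p = 0.198). In both, the ranges overlapped and the medians were apart. Within number 48 they differed by -0.22 and -0.07, and neither passed p 0.01, and within number 40 by -0.92 and -0.51, of which Rspo3 passed. Of 31 Wnt pathway genes tested, 4 were higher in daughters and 0 in sons, with a median of -0.05. Over all autosomal genes 2.25% were called higher in daughters and 1.03% in sons. Of 16 liver endothelial markers, all measured and tested, 5 were higher in daughters and 0 in sons (median -0.07, 12 below 0): Wnt2 and Rspo3, which both lists hold, Vwf of large vessels (-0.35), and Clec4g (-0.35, adjusted p = 0.204) and the nuclease Dnase1l3 (-0.25, adjusted p = 0.229) of the sinusoids. A further Clec4g probe set, at a mean level of 3.23, gave 0.15, and on the mean of its 2 probe sets Clec4g did not pass (-0.10). No gene of either list passed within number 48. On median-centred arrays 2 of the Wnt genes and 3 of the endothelial markers passed, Dnase1l3 not among them. Without the daughters of number 39, 0 of the Wnt genes and 1 of the endothelial markers passed, and without m-WS1, 2 and 4, Wnt2 not among them (-0.68). In whole liver, fewer cells of a type and less RNA per cell cannot be told apart. The summed level of the endothelial list was 12.80 to 13.14 in sons and 13.08 to 13.19 in daughters, and no member was below the intensity filter in all WSD pups.

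Cell cycle genes also had 1 sign. All 25 tested, of 26 measured, were below 0, with a median of -0.15, and 4 passed p 0.01, all higher in daughters. Cdt1, which licenses replication origins, lay at 6.61, 6.82 and 7.17 in sons and 6.93, 7.18 and 7.27 in daughters (-0.33 ± 0.079, adjusted p = 0.0916). The cyclins of the start of the cycle, Ccnd1 and Ccnd2, differed by -0.36 ± 0.11 (adjusted p = 0.225) and -0.21 ± 0.057 (adjusted p = 0.165), and the replication clamp Pcna by -0.20 (adjusted p = 0.275). Mki67, the marker of cycling cells, did not pass (-0.10, adjusted p = 0.822), and neither did Top2a (-0.10, adjusted p = 0.803) or Cdk1 (-0.15, adjusted p = 0.615). On LFD, 2 of the 25 were below 0 and the median was 0.11.

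The pups differed within each sex as well. Averaged over the 25 genes, sons lay between 7.78 (m-WS1) and 8.08 (m-WS6) and daughters between 7.89 (f-WS2) and 8.28 (f-WS3), so the groups overlapped. Within number 40, 11 of the 25 passed p 0.01 with a median of -0.41. Within number 48 none did (limma, no member at p 0.05), the median was -0.06 and 18 were below 0. Without m-WS1, 2 passed, Ccnd1 (-0.30) not among them, and 23 were below 0, and 23 were below 0 when arrays were centred on their medians.

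**Figure D5:**
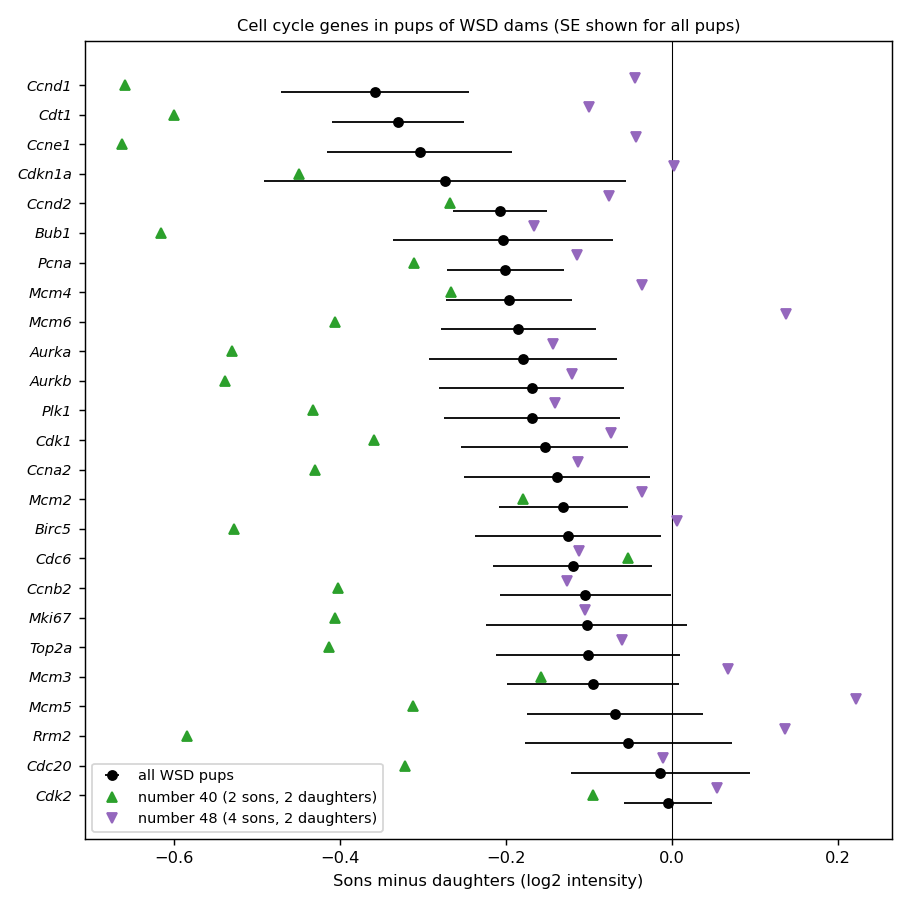
The x axis is the difference in log2 intensity, sons minus daughters of WSD dams, for the 25 cell cycle genes tested; circles with ± SE are all 12 pups, upward triangles the 4 pups of number 40 and downward triangles the 6 pups of number 48. All circles lie below 0, and the medians of the 3 sets are -0.15, -0.41 and -0.06.

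Of 15 foetal and imprinted growth genes tested, 2 were higher in daughters and 0 in sons (median -0.10), beside 2.25% and 1.03% of all autosomal genes. Cdkn1c, an imprinted inhibitor of cyclin-dependent kinases, lay at 7.32, 7.49 and 7.63 in sons and 7.64, 7.97 and 8.06 in daughters (-0.41 ± 0.12, adjusted p = 0.204), and Igf2, the imprinted foetal growth factor, at 12.20, 12.31 and 12.53 against 12.51, 12.56 and 12.63 (-0.21 ± 0.065, adjusted p = 0.215). Cdkn1c did not overlap and Igf2 did so narrowly. For Cdkn1c the LFD difference was 0.23 (adjusted p = 0.752). Within number 48 Igf2 differed by -0.25, past p 0.01, and Cdkn1c by -0.23, which did not pass. Within number 40 it was -0.07 for Igf2 and -0.42 for Cdkn1c, and neither passed.

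Among metabolic lists few genes passed. Of 19 genes of fatty acid synthesis and desaturation tested, Pklr alone did (1 higher in daughters, median -0.09), and of 19 fatty acid oxidation and PPARA target genes Acot3 alone (1 higher in daughters, or 2 without m-WS1, median -0.07). Acot4, the neighbouring thioesterase, was outside the list and had 7.98, 8.49 and 8.75 in sons and 8.75, 8.89 and 9.12 in daughters (-0.46 ± 0.10, adjusted p = 0.0712). None of 19 cholesterol synthesis genes passed (median -0.04, 15 below 0), whereas on LFD all 19 were above 0, with a median of 0.21 and 1 called higher in sons (5 without m-LF6, with a median of 0.28). With number as a block 4 of the 19 were higher in daughters, with a median of -0.19. The block also left 4 of the fatty acid synthesis genes higher in daughters and 0 in sons, with a median of -0.10. Among 17 sterol efflux and bile acid genes the sterol pump half-transporter Abcg8 was higher in sons, at 10.34, 10.44 and 10.60 against 9.97, 10.06 and 10.47 (0.30 ± 0.091, adjusted p = 0.212), and Cyp7b1, which did not pass without m-WS1, higher in daughters. Of 30 xenobiotic genes, 1 was higher in sons, Cyp2c29 (0.30 ± 0.10, adjusted p = 0.272), and 2 in daughters, Cyp3a44 and Cyp3a16. With number as a block 0 of the 30 were higher in sons and 6 in daughters.

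Single genes of respiration and of the cytosolic ribosome were among those higher in sons, by small differences. Of 18 oxidative phosphorylation genes tested 1 was higher in sons and 0 in daughters (median 0.05, 3 below 0): Atp5o, a subunit of ATP synthase (0.15 ± 0.052, adjusted p = 0.261), whose highest daughter, at 10.31, was above 4 of the 6 sons. On the mean of its 2 probe sets Atp5o did not pass p 0.01 (0.13). Without m-WS1, 3 of the list were higher in sons. With number as a block 0 were higher in sons and 1 in daughters. Within number 48 these counts were 1 and 1, and without the daughters of number 39 they were 0 and 0. Uqcr10, a subunit of complex III outside the list tested, lay at 9.32, 9.43 and 9.71 in sons and 9.18, 9.26 and 9.35 in daughters (0.22 ± 0.059, adjusted p = 0.147). Rpl36, a protein of the large cytosolic subunit, lay at 11.29, 11.48 and 11.60 against 11.15, 11.23 and 11.39 (0.21 ± 0.052, adjusted p = 0.0916). Uqcr10 and Rpl36 each overlapped at the edges. The other genes of smallest p towards sons were the homeobox gene Tlx2 (0.27 ± 0.062, adjusted p = 0.0782) and Anxa9, an annexin (0.25 ± 0.067, adjusted p = 0.139), both without overlap, and Efcab9 (0.28 ± 0.069, adjusted p = 0.0916) and Gatd3a (0.23 ± 0.060, adjusted p = 0.15), both with overlap. Tlx2 and Efcab9 were dim, at 5.17 or lower in all 12 pups.

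Few markers of resident and blood immune cells passed p 0.01. Among 12 Kupffer cell markers tested, Folr2, a folate receptor of tissue macrophages, was called (-0.30 ± 0.10, adjusted p = 0.266), 11 were below 0 and the median was -0.14. The summed level of all 13 Kupffer cell markers measured, 12 of them autosomal, was 12.54 to 12.88 in sons and 12.89 to 13.02 in daughters. The lectin gene Cd209f, among the largest differences towards daughters, lay at 7.30, 7.84 and 8.24 in sons and 7.88, 8.57 and 8.85 in daughters (-0.74 ± 0.19, adjusted p = 0.103). Of 22 interferon-stimulated genes 2 were called, Irf7 (-0.32 ± 0.095, adjusted p = 0.204) and Oas2 (-0.28 ± 0.093, adjusted p = 0.257), with a median of -0.09, and with number as a block 8 passed. Over all autosomal genes 2.25% were called higher in daughters. In 3 other marker lists a single gene was called, and the rest had no common direction. Of 12 B and T lymphocyte markers tested 5 were below 0 and 7 above (median 0.04), with the T cell co-receptor Cd4 called (-0.25). Of 8 erythroid markers 4 were below 0 and 4 above (median -0.0065), with the transferrin receptor Tfrc called (-0.19). Of 15 stellate cell and fibroblast markers 6 were below 0 and 9 above (median 0.01), with the retinol-storing enzyme Lrat called (-0.24). Of 17 neutrophil and myeloid precursor markers none was called in limma, and 11 were above 0 (median 0.02). The scavenger adaptor Dab2 of the Wnt list was -0.25. On median-centred arrays Folr2, Oas2, Tfrc, Lrat and Dab2 did not pass p 0.01, and no Kupffer cell marker was called. None of the cholangiocyte, acinar, adipose, gut, clock, immediate-early, collagen, hepatocyte or growth hormone axis genes tested passed in limma. Of the 10 hepatocyte genes measured only 1 was left by the filters and tested, of 9 acinar genes 4, and of 8 adipose genes 4. Whether cell make-up has a part in these differences was not tested.

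Small nucleolar and related RNAs formed a group noticed after the values were seen. Of 54 tested, 7 were higher in daughters (6 without m-WS1) and 0 in sons on WSD, with a median of -0.06 and 35 below 0, and on LFD 7 were higher in daughters and 0 in sons (1 without m-LF6). Over all autosomal genes the shares called higher in daughters were 2.25% on WSD and 0.927% on LFD. Snord52, a box C/D guide RNA, lay at 4.06, 4.43 and 4.64 in sons and 4.90, 5.21 and 5.59 in daughters (-0.87 ± 0.18, adjusted p = 0.024). Snord53 lay at 6.56, 6.79 and 7.08 against 7.21, 7.26 and 7.63 (-0.52 ± 0.10, adjusted p = 0.0199), and Rny3, the Y RNA that binds the Ro protein, at 11.73, 11.92 and 12.01 against 12.09, 12.27 and 12.47 (-0.37 ± 0.072, adjusted p = 0.0152). In all 3 the sons were below all daughters. The LFD differences were -0.65 (adjusted p = 0.365), -0.32 (adjusted p = 0.709) and -0.27 (adjusted p = 0.303), and within number 48 the WSD differences were -0.69, -0.46 and -0.35. Snord47 had -0.59 (adjusted p = 0.0916) on WSD and -0.53 (adjusted p = 0.303) on LFD.

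Few calls were shared between the diets. On LFD 137 autosomal genes (1.31%) passed p 0.01, 40 higher in sons (0.382%) and 97 in daughters (0.927%), and none had an adjusted p under 0.05 in limma (682 at an unadjusted p under 0.05). Without m-LF6, a choice made after seeing the data, 234 passed p 0.01, 90 higher in sons and 144 in daughters, and 1, the B cell receptor gene Tnfrsf13c, the adjusted threshold. Of the 343 genes of the WSD pups, 6 were also called on LFD with the same sign and 2 with the opposite sign, or 6 and 6 without m-LF6. Snord52, Snord53 and Rny3 were among those of the same sign. The same sign on LFD was seen in 46.1% of the 343 and in 47.6% of all autosomal genes. The test of the difference between the diets was passed by 262 genes (2.50%) at p 0.01 and by none after adjustment (1031 at an unadjusted p under 0.05), and without m-LF6 by 387 and again none (1266), so that a sex difference limited to one maternal diet was not shown for any named gene at the adjusted threshold. The smallest p among the 343 genes were those of Pklr (-0.45), Lacc1 (-0.52), C2 (0.34) and Cyp3a44 (-0.72), each with an adjusted p of 0.182. Lacc1, an enzyme of macrophage metabolism, is one of the 2 genes called with opposite signs: -0.26 (adjusted p = 0.225) on WSD and 0.27 (adjusted p = 0.537) on LFD, with sons at 7.63, 7.85 and 8.05 and daughters at 7.92, 8.15 and 8.22 on WSD. On median-centred arrays its WSD difference did not pass p 0.01.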

How the data were processed

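RMA was run by the authors over all arrays, and the deposited table holds log2 intensities of 35556 probe sets of the manufacturer's design. Of 21218 probe sets with 1 gene, the one of highest mean stood for each of 18820 genes. After the filters of the study (intensity 20 or more in 4 or more arrays, interquartile range from 0.1 up) 10810 genes were left, 10462 of them autosomal. They were fitted with limma 3.58.1 (R 4.3.3): 4 group means over 27 arrays, an intensity trend in eBayes, and Benjamini-Hochberg adjustment over the 10810 genes. On simulated data, with pups drawn independently, the fit recovered 80.5% of genes with a difference of 0.3 at p 0.01, and 56% at an adjusted p of 0.05. Likeness between pups that share a number was not simulated, so recovery in the real data can differ. The number of arrays limits the precision, and the median SD of a gene within a group was 0.12.

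The lists, and the rule for naming genes, were chosen with earlier results of these data known. Named were the 10 autosomal genes of smallest p in each direction, the 5 largest differences in each direction and, per list, no more than 3 members with the smallest p (all at p 0.01), 6 members of each adult sex-biased list, and 4 genes by the difference between the diets. Other members were named for context after their values were seen. Gene names come from the platform annotation updated by RefSeq. X-linked and Y-linked genes entered the fit, the adjustment of p-values and the label check, and are otherwise not described. Probe sets with several genes and the measurements outside the arrays were not used here. Tools were Python 3.11.15, pandas 2.3.3 and matplotlib 3.10.9.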

Additional observations from a re-analysis of the deposited data

Results flagged for a closer look

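In 6 of the 120 groups of 6 pups examined, the highest or lowest pup stood far from the others; chance sets about 1 in 20 groups apart in this way. Among sons, Xist was 7.92 in m-WS1 against 3.40 to 4.50 in the other 5, Aqp7 was 6.20 in m-WS2 against 6.46 to 6.54, Acot4 was 7.98 in m-WS2 against 8.47 to 8.75, and Efcab9 was 4.20 in m-WS4 against 4.38 to 4.43. Among daughters, Snord53 was 7.63 in f-WS1 against 7.21 to 7.30, and Clec4g was 11.05 in f-WS4 against 10.62 to 10.76.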

How the results depend on the processing

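The 10 genes at an adjusted p under 0.05 became 21 with array weights, 24 when the 2 WSD groups were fitted alone, 2 without the daughters of number 39, 0 within number 48, and 3 (without f-WS1) to 25 (without f-WS6) when 1 pup was left out. The 108 genes higher in sons became 216 with median-centred arrays, 165 after repeated quantile normalization, 169 without the intensity filter, 205 with neither filter, 165 with array weights, 52 without number 39, 24 within number 48, and 54 (without m-WS3) to 189 (without f-WS5). The 235 higher in daughters became 123 with median-centred arrays, 119 without number 39, 65 within number 48, and 167 (without m-WS2 or f-WS2) to 302 (without f-WS5). On LFD, the 137 genes at p 0.01 were 209 with neither filter and 234 without m-LF6, and the 0 adjusted genes were 1 with array weights and 1 without m-LF6, which was left out after seeing the data. The cause of these changes was not tested. In fits on fewer pups, the number of pups and the choice of pups left out cannot be told apart. Of the named genes, Cyp2f2 changed sign within number 40 (-0.0783) and Mup20 with number as a block (-0.0091) and within number 40 (-0.11). Named genes higher in daughters that did not pass p 0.01 on median-centred arrays were Folr2, Tfrc, Lrat, Dnase1l3, Ugt2b38, Cyp7b1, Dab2, Oas2 and Lacc1. Of 28 alternative settings, Cyp7b1 did not pass in 18, Tfrc in 17, Atp5o in 15, Ugt2b38 and Hal in 13, and Folr2 and Uroc1 in 12. With the replicate number as a block 23 genes passed the adjusted threshold on WSD and 1 on LFD. At p 0.01, 400 passed on WSD (108 higher in sons, 292 in daughters). Deviations of pups with the same replicate number correlated from -0.14 to 0.24 on WSD and from -0.13 to 0.38 on LFD. These correlations cannot decide whether the replicate numbers pair pups, because the correlation that true pairs would show is not known. The main fit did not pair pups.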

Other observations

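Some genes outside the naming rule were singled out after their values were seen. The metallothioneins Mt1 and Mt2, small proteins that bind zinc and copper, were higher in sons by 0.86 ± 0.29 (adjusted p = 0.246) and 0.99 ± 0.32 (adjusted p = 0.232). For Mt2 the sons lay close together, at 12.08, 12.27 and 12.46 (lowest, median and highest), whereas daughters ran from 9.68 over 11.28 to 12.33. On LFD the differences were -0.28 and -0.25 (adjusted p = 0.85 and 0.888). Both passed p 0.01 on WSD, as did Hamp and its paralog Hamp2, and like these they overlapped between the groups.

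Jam2, an adhesion molecule of vessel walls, lay at 7.34, 7.64 and 7.83 in sons and 7.86, 8.32 and 8.73 in daughters, without overlap (-0.65 ± 0.15, adjusted p = 0.0782). Cav2, a caveolin, did not overlap either (-0.26 ± 0.063, adjusted p = 0.0916). Tkfc, which phosphorylates the glyceraldehyde released from fructose, had 10.16, 10.22 and 10.31 in sons and 10.30, 10.53 and 10.79 in daughters (-0.30 ± 0.073, adjusted p = 0.0916). The protease gene Gzmb of cytotoxic lymphocytes lay at 4.38, 5.41 and 5.77 against 5.61, 5.98 and 6.15 (-0.63 ± 0.15, adjusted p = 0.0922). For each of these 4 genes the LFD difference lay from 0.00 to 0.12 (adjusted p from 0.883 to 0.999).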
